A study of Xenopus laevis with 54 samples.

Results

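Early zygotic genes other than transcription factors were described here through 7 of the 50489 genes of the table: gs17.L, has2.L, lpar6.L, post3.S, gatm.L, abo.6.L and btg-x_gene34835. They were chosen from these same values, 6 of them for being near 0 at 5 hours post fertilization (hpf) and high at 9 hpf, and abo.6.L for an early rise on the beads. No numeric limit was set for that choice. The values at 5 and 9 hpf, and the bead values of abo.6.L, are therefore given as a description without a test, and tests of the 7 genes are those of the hours between, of bead against flowthrough RNA at 7 and 8 hpf (without abo.6.L), and of total against flowthrough RNA at 8 hpf.

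The libraries came from wildtype embryos of the frog Xenopus laevis at 5, 6, 7, 8 and 9 hpf, labelled as blastulae, and from wildtype unfertilized eggs. All embryos, those used for total RNA included, had been injected as zygotes with 5-ethynyl uridine (EU), a uridine analog that cells build into new RNA. The injection was 10 nl of 50 mM EU, for 0.5 mM final, and the temperature given for embryos and eggs was 22 C. EU-RNA was biotinylated and captured on streptavidin beads (bead RNA), and what was not captured is the flowthrough RNA. Each bead and flowthrough group held 4 libraries, replicates 1 and 2 from experiment 1 and replicates 3 and 4 from experiment 2. Total RNA at 6 to 9 hpf held 2 libraries per time, both of experiment 1, total RNA at 5 hpf held 4, and eggs held 2, both of experiment 2. Whole embryos were sequenced, so more RNA per cell and more cells that make it cannot be told apart.

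In Xenopus the egg loads the embryo with maternal messenger RNA, and the embryo's own genome is largely silent until the mid-blastula transition, when zygotic transcription begins on a large scale. A gene with no maternal message shows this start as a rise out of an empty background, in total RNA as well as on the beads. X. laevis is an allotetraploid in which many genes come as a pair, named L and S, so the other copy of each gene is given beside it. The 7 genes cover several roles. gs17 is a long-used marker of the start of zygotic transcription, has2 makes the matrix polysaccharide hyaluronan, lpar6 is a G-protein-coupled receptor for lysophosphatidic acid (LPA), and gatm carries out the first step of creatine synthesis. abo genes are named for the blood group glycosyltransferases of mammals, btg genes belong to the antiproliferative BTG and Tob family, and post3 is named here without a role.

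The labelled stages were checked on markers. The 8 rows of the egg and maternal list summed to 3673 to 4261 in total RNA at 9 hpf and to 6594 to 7349 in eggs. Not every row was lower at 9 hpf: dazl.L had 242 to 276 against 122 to 128 in eggs, ddx25.L overlapped, and gdf1.S was 0 in eggs. The 9 rows of the differentiated tissue list summed to 31 to 44 in total RNA at 9 hpf and to 1 to 28 in eggs. At 9 hpf ins.L alone had 31 to 42, and 7 rows were at 0. The sums are therefore a coarse check. The bead libraries of experiment 2 stood apart: they listed 12814 to 18990 genes above 0, against 23212 to 28348 in those of experiment 1, and the smallest value above 0 reached 9 in the bead library of 6 hpf, replicate 3. A bead value of 0 in experiment 2 is therefore only a listed 0. Gene lengths are not given in the table, so levels are compared between libraries of 1 gene and not between genes. Values are normalized read numbers as deposited, without a unit.

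gs17.L was the first of the 6 genes chosen on their 5 and 9 hpf values to be listed in all 4 bead libraries. Its total RNA values were 0 and 1 in eggs, 1, 0, 1 and 0 at 5 hpf, 30 and 19 at 6 hpf, 170 and 177 at 7 hpf, 1468 and 1206 at 8 hpf, and 3311 and 2787 at 9 hpf. Its bead values were 6, 3, 0 and 0 at 5 hpf, 36, 58, 25 and 53 at 6 hpf, 659, 504, 273 and 840 at 7 hpf, 2187, 1661, 1291 and 2351 at 8 hpf, and 5483, 3928, 2516 and 5179 at 9 hpf. The ranges of neighbouring hours did not overlap in either fraction from 5 hpf on. The value of 25 in replicate 3 at 6 hpf came from the library whose smallest value above 0 was 9. In the flowthrough gs17.L was 0 in all libraries at 5 hpf and 0, 1, 0 and 0 at 6 hpf, then 0, 6, 1 and 5 at 7 hpf, 20, 17, 23 and 15 at 8 hpf, and 60, 37, 59 and 63 at 9 hpf.

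has2.L, the hyaluronan synthase, was listed at 0 in both eggs and in all 4 bead libraries at 5 hpf. Its bead values were 2, 5, 0 and 0 at 6 hpf, 205, 100, 163 and 117 at 7 hpf, 530, 495, 271 and 1548 at 8 hpf, and 1328, 1136, 1785 and 3541 at 9 hpf. In total RNA it was 0, 1, 0 and 0 at 5 hpf, 0 in both libraries at 6 hpf, 18 and 10 at 7 hpf, 137 and 112 at 8 hpf, and 262 and 191 at 9 hpf. The bead ranges of 7 and 8 hpf did not overlap, while those of 8 and 9 hpf did, through replicate 4 at 8 hpf. Flowthrough values never passed 7.

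lpar6.L, the LPA receptor, had bead values of 0 in all libraries at 5 hpf, 0, 1, 0 and 0 at 6 hpf, 42, 42, 58 and 52 at 7 hpf, 148, 208, 240 and 462 at 8 hpf, and 576, 529, 417 and 526 at 9 hpf. Its total RNA values were 0 and 0 in eggs, 0, 1, 0 and 0 at 5 hpf, 0 and 0 at 6 hpf, 24 and 12 at 7 hpf, 195 and 170 at 8 hpf, and 535 and 395 at 9 hpf. Its 4 bead libraries of 7 hpf lay close together across both experiments. At 8 hpf replicate 4 exceeded replicate 3 of 9 hpf, so the bead ranges of those hours overlapped. Flowthrough values stayed at or under 3.

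gatm.L, the creatine synthesis enzyme, had low values through 8 hpf. Its total RNA values were 2 and 2 in eggs, 0 in all libraries at 5 and 6 hpf, 4 and 2 at 7 hpf, 49 and 28 at 8 hpf, and 222 and 162 at 9 hpf. Its bead values were 0 in all libraries at 5 and 6 hpf, 6, 0, 37 and 0 at 7 hpf, 70, 60, 23 and 0 at 8 hpf, and 443, 391, 270 and 205 at 9 hpf. The bead ranges of 7 and 8 hpf overlapped: replicate 3 at 7 hpf, with 37, was above replicates 3 and 4 at 8 hpf. Only at 9 hpf did every bead library stand above those of the hours before.

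post3.S had bead values of 0 in all libraries at 5 and 6 hpf, 12, 8, 40 and 19 at 7 hpf, 66, 119, 194 and 447 at 8 hpf, and 222, 422, 577 and 903 at 9 hpf. Its total RNA values were 0 in eggs and at 5 and 6 hpf, 3 and 1 at 7 hpf, 34 and 38 at 8 hpf, and 102 and 158 at 9 hpf. Bead values of experiment 2 exceeded those of experiment 1 at each of these last 3 times, without overlap, with means 2.95, 3.46 and 2.30 times as high at 7, 8 and 9 hpf. Its flowthrough was 0 in every library except replicate 1 at 9 hpf, which had 2.

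btg-x_gene34835, of the BTG and Tob family, had bead values of 0, 3, 0 and 0 at 5 hpf, 10, 5, 0 and 0 at 6 hpf, 372, 166, 67 and 169 at 7 hpf, 1273, 1049, 600 and 1410 at 8 hpf, and 3087, 2694, 1749 and 2814 at 9 hpf. Its total RNA values were 0 and 0 in eggs, 0, 1, 0 and 3 at 5 hpf, 3 and 0 at 6 hpf, 42 and 31 at 7 hpf, 200 and 138 at 8 hpf, and 444 and 328 at 9 hpf. From 6 hpf on, neighbouring hours did not overlap on the beads. In the flowthrough it was at most 5 through 8 hpf and 6, 2, 22 and 17 at 9 hpf.

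abo.6.L, the glycosyltransferase-family gene, differed from the rest in that it was present before zygotic transcription. Its values were 17 and 20 in eggs, and in total RNA 13, 7, 34 and 33 at 5 hpf, 24 and 27 at 6 hpf, 81 and 62 at 7 hpf, 281 and 272 at 8 hpf, and 452 and 549 at 9 hpf. Its bead values were 34, 50, 323 and 150 at 5 hpf, 88, 89, 468 and 643 at 6 hpf, 455, 398, 2695 and 5938 at 7 hpf, 1479, 1363, 7335 and 18651 at 8 hpf, and 2351, 3083, 17629 and 41343 at 9 hpf. Replicates 3 and 4, of experiment 2, were higher than replicates 1 and 2, of experiment 1, at every hour. The mean bead value of experiment 2 was 10.1, 9.14 and 10.9 times that of experiment 1 at 7, 8 and 9 hpf, whereas for the other 6 genes at 9 hpf this ratio lay between 0.570 and 2.30. Total RNA of 6 to 9 hpf was sequenced in experiment 1 alone, so the gap cannot be looked for there at those hours. At 5 hpf total RNA was 13 and 7 in experiment 1 and 34 and 33 in experiment 2, without overlap. In the flowthrough abo.6.L had 26, 33, 43 and 61 at 9 hpf and 19, 15, 24 and 34 at 5 hpf, with the higher values again in replicates 3 and 4.

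**Figure D1:**
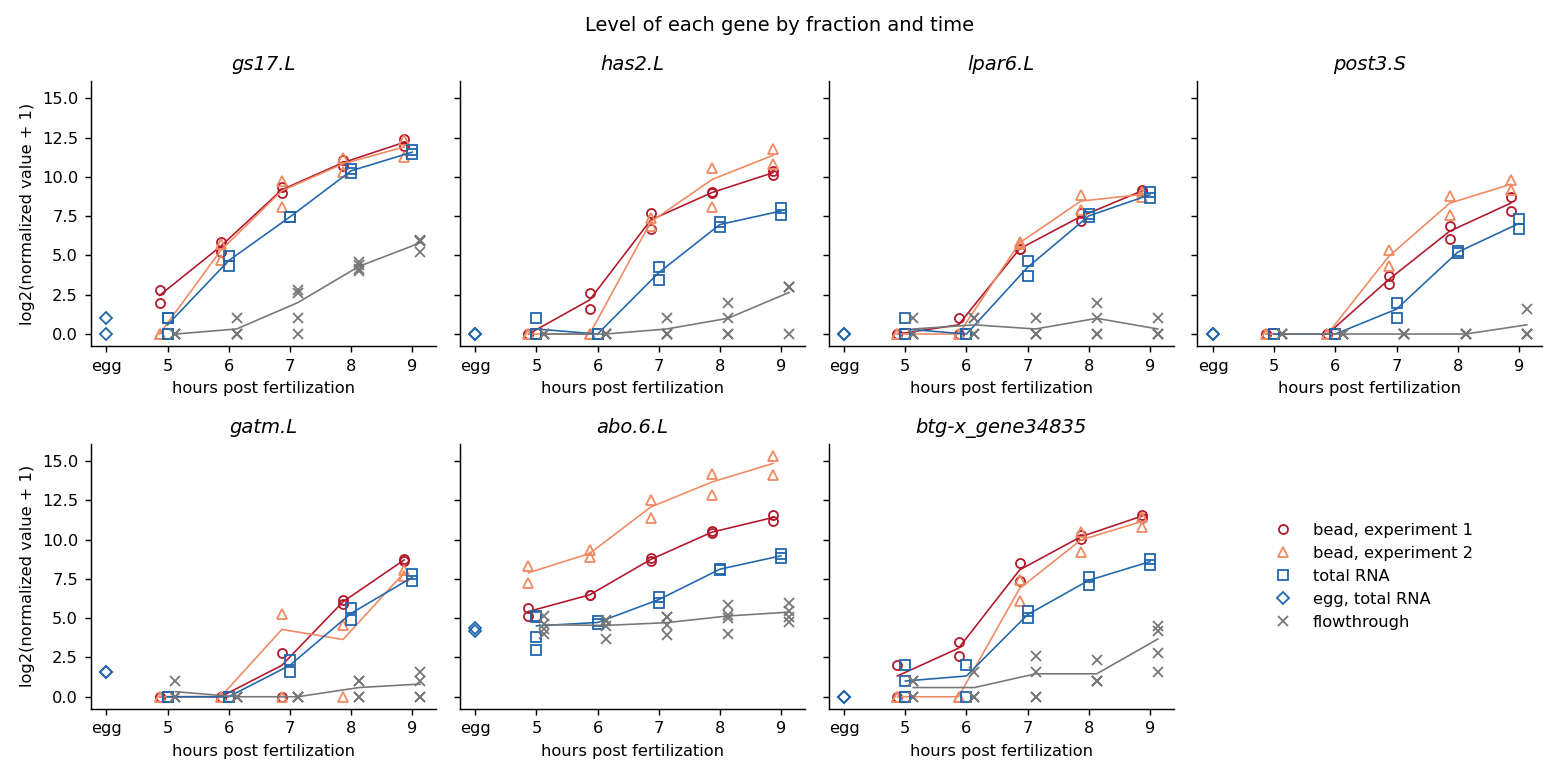
Level of each of the 7 genes as log2(normalized value + 1) against hours post fertilization, with eggs at the left. Each point is 1 library, the lines join the logged means of each time, red and orange are bead RNA of experiments 1 and 2, blue is total RNA and grey is flowthrough RNA. Every gene other than abo.6.L starts at or near 0, gs17.L leaves that level by 6 hpf, and the 2 bead experiments of abo.6.L run apart at every hour.

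The share of the 9 hpf value that each replicate had reached placed the genes in time without use of their absolute level. At 7 hpf the bead value of gs17.L was 10.9 to 16.2% of its 9 hpf value, that of has2.L 3.30 to 15.4%, and that of lpar6.L 7.29 to 13.9%. The bead value of btg-x_gene34835 was 3.83 to 12.1% and that of post3.S 1.90 to 6.93% at that hour. gatm.L stood at 0 to 13.7% on the beads at 7 hpf, and in total RNA at 1.23 to 1.80%, within the 0.633 to 2.94% of post3.S. These ranges over 4 replicates overlapped for most pairs of genes.

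At 8 hpf gs17.L had reached 39.9 to 51.3% of its 9 hpf value on the beads and 43.3 to 44.3% in total RNA. gatm.L had reached 0 to 15.8% on the beads and 17.3 and 22.1% in total RNA, below every other gene of the set in both fractions except 1 bead library of has2.L, which was at 15.2%. post3.S stood at 28.2 to 49.5% on the beads and at 24.1 and 33.3% in total RNA. The remaining 4 genes had reached 36.4 to 62.2% in total RNA. lpar6.L spread most on the beads at 8 hpf, with 25.7 to 87.8%.

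**Figure D2:**
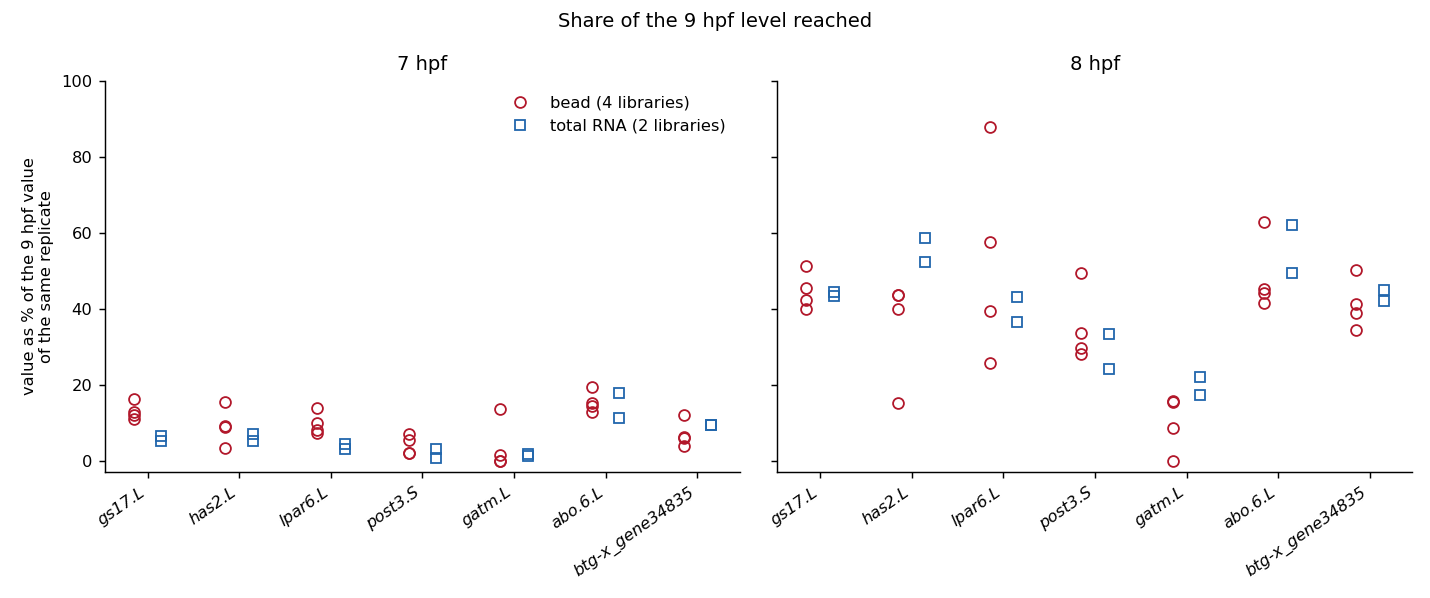
Value at 7 hpf (left) and 8 hpf (right) as a percentage of the 9 hpf value of the same replicate, for each gene, with 4 bead libraries (circles) and 2 total RNA libraries (squares). At 8 hpf gatm.L lies at 0 to 15.8% on the beads and at 17.3 and 22.1% in total RNA.

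Between 6 and 7 hpf, 5 of 6 genes were called higher on the beads and gatm.L was not. Of these 6, only gs17.L reached 10 in enough libraries at 6 hpf. The results of the others are therefore a description. A gene was called at a Benjamini-Hochberg adjusted p under 0.05 in limma-trend and a change of at least 2-fold, and 0.609% of the 20703 genes tested were called higher. The log2 change, on the scale of log2(value + 1), was 3.65 ± 0.60 (SE, n = 4 against 4) for gs17.L, with an adjusted p of 0.00369. It was 6.10 ± 0.92 for has2.L (adjusted p = 0.00191), 5.37 ± 0.84 for lpar6.L (adjusted p = 0.0026) and 5.84 ± 0.88 for btg-x_gene34835 (adjusted p = 0.0019). For post3.S, listed at 0 in all 4 libraries at 6 hpf, no fold is given. Its adjusted p was 0.0218, and it was not called in 16 of 20 alternatives. The changes of has2.L, lpar6.L and btg-x_gene34835 start from values of 10 or less and depend on the 1 added before the logarithm. None of the 6 was called without replicate 1, without replicate 2, or in experiment 2 alone. Nor was any called when replicates 1 and 3, and 2 and 4, were averaged, although the direction was the same in each case. Calls fell over the whole table too, from 126 genes higher to 1 in experiment 2 alone and 11 with replicates averaged. When libraries were left out the lowest count over the table was 5.

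Between 7 and 8 hpf the bead values of all 6 genes were higher on average, and none was called, with 0.111% of all genes called higher. At an unadjusted p under 0.05, 5 of the 6 passed, all higher, beside 641 genes higher and 488 lower of the 20703 tested. The changes were 1.79 ± 0.60 for gs17.L (adjusted p = 0.677), 2.03 ± 0.92 for has2.L (0.889), 2.31 ± 0.84 for lpar6.L (0.805), 3.21 ± 0.87 for post3.S (0.33) and 2.66 ± 0.88 for btg-x_gene34835 (0.669). With 10 added before the logarithm, 2 of the 6 were called, post3.S and btg-x_gene34835, and under quantile normalization post3.S was. Neither post3.S nor gatm.L reached 10 in enough libraries at 7 hpf, so their results for this step are a description. The bead ranges of 7 and 8 hpf did not overlap for 5 of the 6 genes, all but gatm.L. The share of all genes without such overlap was not computed, so this count is a description only.

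Over the 2 hours from 6 to 8 hpf, 5 of the 6 genes were called higher on the beads, beside 2.49% of all genes. For all but gs17.L this is again a description, since they entered the fit through the later hours. gs17.L changed by 5.45 ± 0.60 (adjusted p = 8.88e-06), has2.L by 8.13 ± 0.92 (1.2e-05), lpar6.L by 7.67 ± 0.84 (8.9e-06) and btg-x_gene34835 by 8.50 ± 0.88 (5.69e-06). post3.S, at 0 in every library of 6 hpf, had an adjusted p of 1.8e-05. gatm.L was not called (adjusted p = 0.0844). It was called without the 8 hpf library of replicate 4, where it was listed at 0 (adjusted p = 0.00678), without replicate 4 at all hours (0.00825), and in experiment 1 alone (0.00411). In experiment 2 alone none of the 6 was called, with adjusted p-values of 0.155 to 0.876. That fit called 11 genes higher over the whole table, against 516 in the main fit, so the loss is not particular to these genes.

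In total RNA all 7 genes were called higher at 8 than at 6 hpf, beside 3.7% of the 21534 genes tested. For has2.L, lpar6.L, post3.S, gatm.L and btg-x_gene34835 this is a description, since they entered through the hours in which they are high. The change was 5.74 ± 0.49 for gs17.L (SE, n = 2 against 2, adjusted p = 1.13e-04), 3.39 ± 0.30 for abo.6.L (1.36e-04) and 6.38 ± 0.80 for btg-x_gene34835 (9.91e-04). For has2.L, lpar6.L, post3.S and gatm.L, which were listed at 0 in both libraries of 6 hpf, no fold is given. Their adjusted p-values were 8.61e-05, 6.11e-05, 5.09e-04 and 3.76e-04. The spread was estimated over all 12 total RNA and 2 egg libraries. Leaving out replicate 1 or replicate 2 at all hours left 1 library per group from 6 hpf on, and none of the 7 was then called (lowest adjusted p = 0.433).

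In the flowthrough none of the 7 genes passed 63 in any library. 2 of the 7 genes, gs17.L and abo.6.L, had values high enough there to enter the test of 8 against 6 hpf, in which 0.114% of 19277 genes were called higher. gs17.L reached the value of 10 that the test required only at 8 and 9 hpf, so it entered through the hours in which it is high, and its call as higher (adjusted p = 0.00104) is given as a description. It was not called in experiment 1 alone (adjusted p = 0.894), in experiment 2 alone (0.485) or with replicates 1 and 3, and 2 and 4, averaged (0.349). abo.6.L had 31, 15, 55 and 36 at 8 hpf and 22, 12, 27 and 28 at 6 hpf, a change of 0.53 ± 0.27 (SE, n = 4 against 4, adjusted p = 0.494).

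Bead RNA was set against flowthrough RNA of the same hour. At 7 hpf 5 of 6 genes were called higher on the beads and gatm.L was not (adjusted p = 0.183), beside 3.39% of all genes. For all 6 this is a description. gs17.L had 0, 6, 1 and 5 in the flowthrough at 7 hpf, and the others entered the fit through the beads. The log2 difference was 7.44 ± 0.60 for gs17.L (adjusted p = 5.69e-11) and 6.90 ± 0.65 for has2.L (1.72e-09). With flowthrough values this low the differences depend on the 1 added before the logarithm, and the lowest over the alternatives were 5.39 and 3.88. At 8 hpf all 6 were called higher on the beads, beside 6.59% of all genes, again a description for all but gs17.L. abo.6.L was at 1479, 1363, 7335 and 18651 on the beads against 31, 15, 55 and 36 in the flowthrough, without overlap, and is not tested here since its bead values chose it. lpar6.L differed by 7.17 ± 0.50 (1.14e-12), with 4.53 as its lowest over the alternatives, and gatm.L by 3.67 ± 0.90 (0.00385). gatm.L was not called in experiment 2 alone (0.607), without replicate 1 (0.144) or without replicate 2 (0.0867).

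The change from 6 to 8 hpf was called larger on the beads than in the flowthrough for 4 of 6 genes. They were has2.L, lpar6.L, post3.S and btg-x_gene34835, beside 1.88% of all genes. These 4 had at most 4 in the flowthrough at 6 and 8 hpf and entered the fit through the beads. Their difference thus largely repeats the rise on the beads and is a description. Their adjusted p-values for this difference of changes were 2.24e-06, 1.61e-08, 9.16e-09 and 4.82e-06. gs17.L, at 15 to 23 in the flowthrough at 8 hpf, differed by 1.41 ± 0.84 and was not called (adjusted p = 0.734). That value rests on flowthrough values of 0 and 1: with 10 added before the logarithm the difference was 3.68 (adjusted p = 9.13e-07), and under quantile normalization 2.43 (0.043). gatm.L differed by 3.67 ± 1.27 (adjusted p = 0.207), and was called in experiment 1 alone (0.012), without replicate 4 (0.0137) and without the 8 hpf bead library of replicate 4 (0.00412).

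Total RNA was set against flowthrough RNA at 8 hpf in experiment 1. All 7 genes were called higher in total RNA, beside 7.79% of the 21611 genes tested. For all but gs17.L and abo.6.L this is a description, since they entered the fit through total RNA. gs17.L had 1468 and 1206 in total RNA against 20 and 17 in the flowthrough, a difference of 6.10 ± 0.70 (SE, n = 2 against 2, adjusted p = 5.82e-05). abo.6.L had 281 and 272 against 31 and 15, a difference of 3.62 ± 0.41 (5.82e-05). The flowthrough value of abo.6.L was thus 11.03 and 5.51% of its total RNA value at 8 hpf, while gs17.L was at 1.36 and 1.41%, has2.L at 0.730 and 0% and lpar6.L at 0.513 and 0%. Each fraction carries its own scaling, so these percentages are ratios of normalized values and not shares of molecules.

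The ratio of bead to total RNA value in experiment 1, a description without a test, varied widely among the 7 genes. At 9 hpf it was 6.95 and 8.21 in replicates 1 and 2 for btg-x_gene34835, 5.201 and 5.62 for abo.6.L, and 5.07 and 5.95 for has2.L. It was 2.18 and 2.67 for post3.S, 2.00 and 2.41 for gatm.L, 1.66 and 1.41 for gs17.L, and 1.08 and 1.34 for lpar6.L. The median over 17367 genes was 0.967. At 9 hpf 3 of the genes were thus above 5 and 4 under 3. This division was read from the same ratios and was not tested. At 8 hpf has2.L was under 5 and post3.S reached 3.13.

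At 8 hpf the same 3 genes were again highest, with 6.37 and 7.60 for btg-x_gene34835, 5.26 and 5.01 for abo.6.L and 3.87 and 4.42 for has2.L. lpar6.L was at 0.759 and 1.22, around the median of 0.963 over 17170 genes. At 7 hpf, when total RNA values were still low, has2.L was at 11.4 and 10.0 and gs17.L at 3.88 and 2.85, above their own ratios at 8 hpf in both replicates. The ratio of gs17.L at 8 hpf was 1.49 and 1.38. lpar6.L, at 1.75 and 3.50, and abo.6.L, at 5.62 and 6.42, were also above their 8 hpf ratios at 7 hpf. btg-x_gene34835 was at 8.86 and 5.35 at 7 hpf, above its 8 hpf ratio in replicate 1 and below it in replicate 2.

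**Figure D3:**
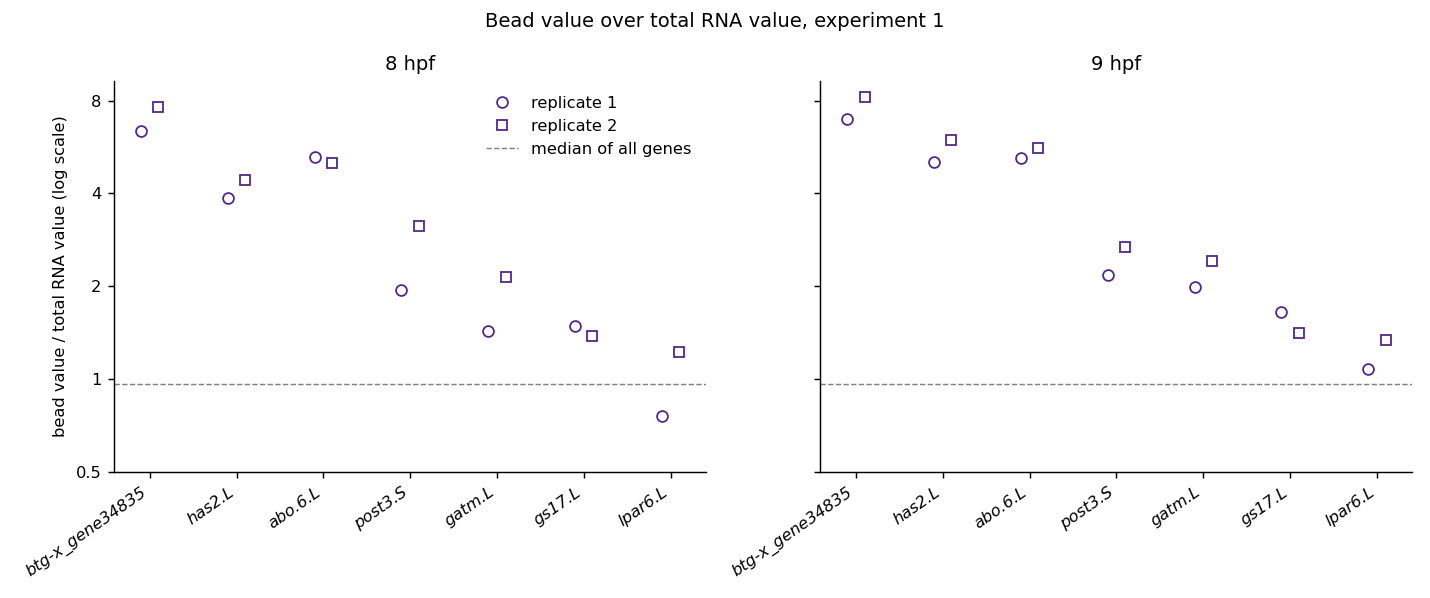
Bead value divided by total RNA value at 8 hpf (left) and 9 hpf (right) for each gene on a log axis, with replicates 1 and 2 of experiment 1 as circles and squares and the median of all genes as a dashed line. btg-x_gene34835, has2.L and abo.6.L lie above 3.8 at both times, and lpar6.L lies nearest to the median.

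The other copy of each gene was looked at in the same libraries. gs17.S had total RNA values of 0, 3, 1 and 0 at 5 hpf, 8 and 4 at 6 hpf, 79 and 59 at 7 hpf, 342 and 163 at 8 hpf, and 652 and 295 at 9 hpf. has2.S had 0, 1, 0 and 4 at 5 hpf, 2 and 3 at 6 hpf, 0 and 2 at 7 hpf, 11 and 10 at 8 hpf, and 80 and 105 at 9 hpf. lpar6.S had 0 in all libraries at 5 hpf, 0 and 1 at 6 hpf, 3 and 2 at 7 hpf, 56 and 94 at 8 hpf, and 187 and 222 at 9 hpf. All 3 were higher at 9 than at 5 hpf in total RNA, beside 6.25% of all genes called higher, with adjusted p-values of 7.88e-05, 9.47e-04 and 1.76e-05, and none was called without replicate 1 or without replicate 2. On the beads all 3 were also higher at 9 than at 5 hpf, beside 5.83% of all genes, with adjusted p-values of 3.81e-04, 3.44e-05 and 0.00881. gs17.S and has2.S lost that call in experiment 2 alone, with 0.295 and 0.097, and lpar6.S lost it without replicate 1 (0.103) and without replicate 2 (0.0869). In total RNA all 3 were under 10 in every library at 5 hpf, as were has2.S and lpar6.S on the beads. They entered those fits through the hours in which they are high, so those results are a description. On the beads gs17.S had 11, 7, 0 and 30 at 5 hpf, around the limit of 10, so its bead result is given as a description too.

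The share of the S copy was not constant over the hours in has2, gs17 or lpar6. has2.S made up 27.2 and 32.7% of the summed bead value of the pair at 9 hpf, against 9.56 and 9.51% at 8 hpf, in experiment 1. In total RNA its share was 23.4 and 35.5% at 9 hpf and 7.43 and 8.20% at 8 hpf, lowest value first. In experiment 2 its bead share was 8.46 and 24.0% at 9 hpf and 0 and 3.61% at 8 hpf. gs17.S was 17.4 to 21.1% of its pair in total RNA at 6 hpf, 25.0 to 31.7% at 7 hpf, 11.9 to 18.9% at 8 hpf and 9.57 to 16.5% at 9 hpf. The ranges of 8 and 9 hpf overlapped, and those of 7 and 8 hpf did not. For lpar6, lpar6.S was 25.9 to 36.0% of the pair in total RNA at 9 hpf and 22.3 to 35.6% at 8 hpf, ranges that overlap. At 7 hpf it was 11.1 to 14.3%, under the range of 8 hpf, but from lpar6.S values of 3 and 2. On the beads of experiment 1 it was 6.67 to 19.2% at 7 hpf, 27.5 to 29.9% at 8 hpf and 22.4 to 24.0% at 9 hpf. In experiment 2 its bead share was 0% at 7 and 8 hpf and 0 to 50.7% at 9 hpf. These shares were not tested, and neither the copies' lengths nor the way reads were split between them is stated in the sources used.

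The bead libraries of experiment 2 went their own way for 2 of these copies. gs17.S had 2100, 1228, 224 and 174 on the beads at 9 hpf, and lpar6.S had 182, 153, 0 and 541. The mean of gs17.S in experiment 2 was 0.1196 times that of experiment 1 at 9 hpf, while gs17.L was at 0.818 times.

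gatm.S was at or under 13 in every library and abo.6.S was 0 in all 54, so the L copy carried nearly all of both pairs. No row named post3.L was found in the table. The row btg-x_gene37239, which shares its symbol with btg-x_gene34835, had 355, 195, 0 and 0 on the beads at 9 hpf, against 0 in all libraries at 5 hpf, and 0 and 7 in total RNA at 9 hpf. It was not called on the beads between 9 and 5 hpf (adjusted p = 0.0741), and was called in experiment 1 alone (0.00151) and in 6 other alternatives. This row entered the fit through the later hours, so these results are a description. RefSeq's table for assembly Xenopus_laevis_v10.1 gives btg-x as a synonym of btg5.2.S, so both rows may hold reads of near-identical sequence and their split is uncertain.

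**Figure D4:**
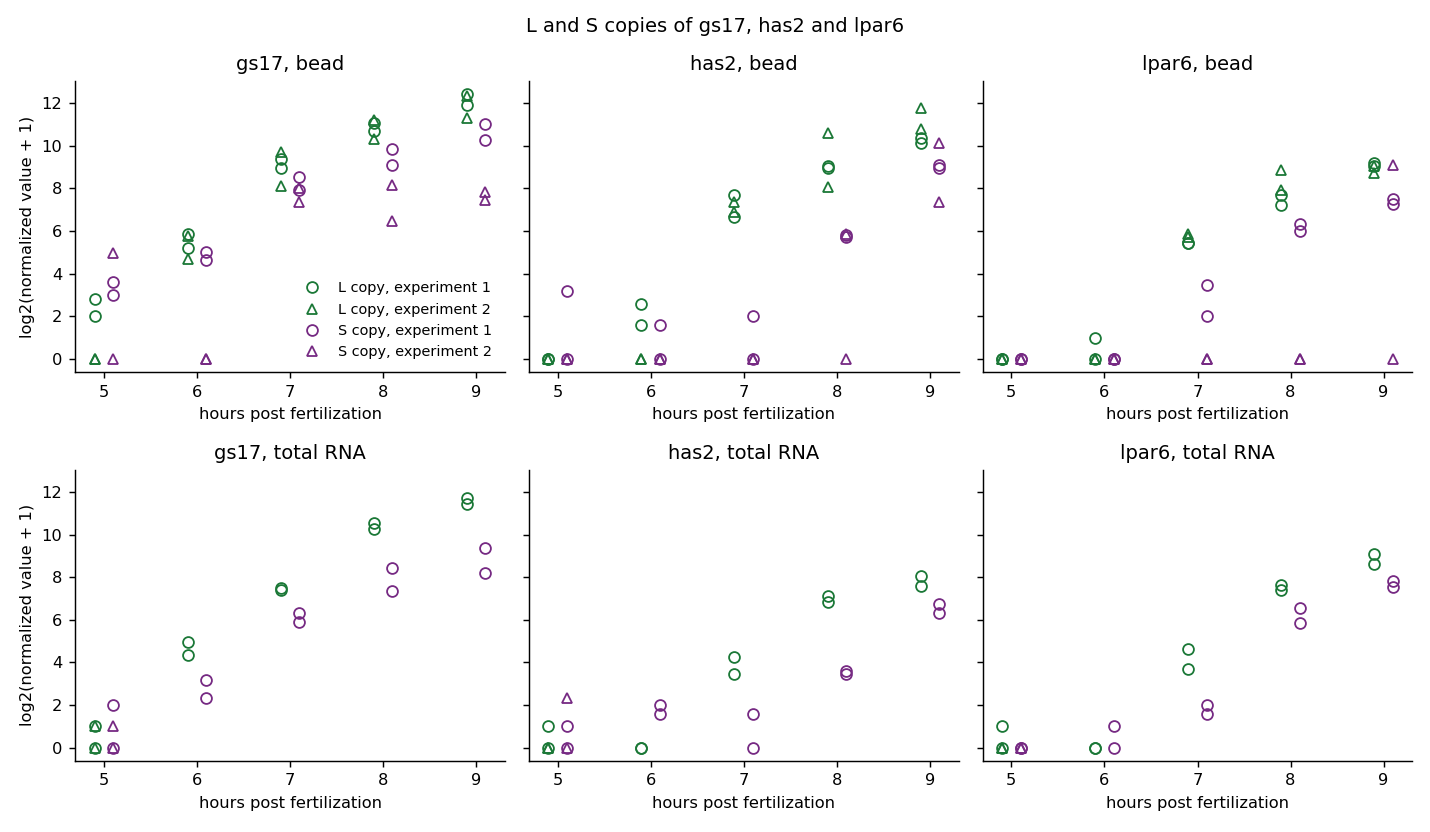
L copy (green) and S copy (purple) of gs17, has2 and lpar6 as log2(normalized value + 1) against hours post fertilization, bead RNA above and total RNA below, with experiment 1 as circles and experiment 2 as triangles. At 8 hpf has2.S is at 11 and 10 in total RNA while has2.L is at 137 and 112, and at 9 hpf gs17.S of experiment 2 lies below that of experiment 1 on the beads.

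The other genes of the same pathways were taken as lists matched by symbol. Of 109 listed genes tested on the beads, the 7 genes themselves left out, 9 were higher and 4 were lower at 9 than at 5 hpf, beside 5.83% of all genes called higher and 1.43% called lower. The median change of the 109 was -0.32, against -0.33 for all genes. In total RNA 12 of 116 were higher and 5 lower, beside 6.25% and 2% of all genes, with 0 called without replicate 1 or without replicate 2. In the flowthrough 0 of 98 were called higher by limma-trend and 9 were lower, beside 0.202% and 3.94%. At an unadjusted p under 0.05, 15 of the 98 were higher there, beside 2191 of the 19277 genes tested. Between bead and flowthrough RNA at 9 hpf 17 of 116 were higher on the beads and 21 lower, beside 9.35% and 18.9%.

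Of the hyaluronan list, 2 of 22 genes tested were higher on the beads, both of them hyaluronan synthases. None was called lower, where 3 passed an unadjusted p under 0.05, beside 2286 lower of the 20703 genes tested. has1.S had 2840, 2104, 1002 and 690 on the beads at 9 hpf and 1, 2, 23 and 0 at 5 hpf, a change of 8.69 ± 1.17 (SE, n = 4 against 4, adjusted p = 1.89e-05). In total RNA has1.S had 933 and 760 at 9 hpf and 3, 4, 3 and 5 at 5 hpf, a change of 7.56 ± 0.72 (adjusted p = 8.39e-05). It was thus far above its 5 hpf level in both fractions, as was has2.S. Neither gene reached 10 in enough libraries at 5 hpf, so these results are a description. The fitted changes of has1.S start near 0 and depend on the 1 added before the logarithm. has3.L, another synthase gene, had 0 in both total RNA libraries at 9 hpf and at most 10 in any bead library. The hyaluronan-binding genes hmmr.L and habp4.L were not called, with changes of -0.26 ± 0.15 (adjusted p = 0.334) and -0.23 ± 0.14 (0.345).

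Of the LPA list, 1 of 34 genes tested was higher on the beads, lpar6.S, a result given above as a description. None was called lower, where 5 passed an unadjusted p under 0.05, beside 2286 lower of the 20703 genes tested. In total RNA 4 of 34 were higher and 1 lower. Among those higher were lpar6.S, the receptor lpar2.L and plpp3.L, which encodes a phosphatase that breaks LPA down. lpar2.L had 82 and 70 in total RNA at 9 hpf and 4, 7, 5 and 4 at 5 hpf, a change of 3.60 ± 0.61 (adjusted p = 0.00293). It was under 10 in every total RNA library at 5 hpf, so this result is a description. lpar2.L had 9 in both eggs and was not called on the beads (adjusted p = 0.107). lpar1.S was the one that fell in total RNA, with 40 and 41 at 9 hpf and 85, 89, 73 and 61 at 5 hpf, a change of -1.08 ± 0.22 (adjusted p = 0.00815). lpar1.S lost that call without replicate 2 at 5 hpf (0.0606) or replicate 1 at 9 hpf (0.0575). lpar5.S was present from the egg on, with 286 and 312 in total RNA at 9 hpf and 355 and 340 in eggs, and did not pass the test between 9 and 5 hpf (adjusted p = 0.256). The receptors of this family thus held maternal messages, such as lpar5.S, and messages listed at 0 in both eggs, lpar6.L and lpar6.S.

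Of the creatine list, 2 of 13 genes tested were higher on the beads and none was called lower. At an unadjusted p under 0.05, 1 of the 13 was lower, beside 2286 of the 20703 genes tested. The 2 higher genes were both copies of the creatine transporter slc6a8. slc6a8.L had 66, 93, 100 and 436 at 9 hpf and 4, 5, 15 and 0 at 5 hpf (4.79 ± 1.21, adjusted p = 0.0134). slc6a8.S had 107, 101, 318 and 4 at 9 hpf and 4, 1, 0 and 0 at 5 hpf (5.19 ± 1.15, adjusted p = 0.00436). Neither copy reached the value required for testing in enough bead libraries at 5 hpf, so these bead results are a description. Both fitted changes start from low values and depend on the constant added before the logarithm. slc6a8.L was not called without the bead library of replicate 4 at 5 hpf (adjusted p = 0.065) or at 9 hpf (0.0572), nor without replicate 1, 2 or 4 at both hours (0.0853 to 0.108). slc6a8.S was not called without replicate 2 (0.0751). In total RNA neither was called between 9 and 5 hpf (adjusted p = 0.174 for slc6a8.L and 0.229 for slc6a8.S). The brain-type creatine kinase copies ckb.L and ckb.S were not called on the beads (adjusted p = 0.613 and 0.599).

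Of the BTG and Tob list, which also held subunits of the CCR4-NOT deadenylase, 2 of 18 genes tested were higher on the beads and 3 lower. btg1.L had 732, 572, 908 and 1510 at 9 hpf and 134, 74, 100 and 0 at 5 hpf (4.78 ± 1.06, adjusted p = 0.00455). The 0 was in replicate 4 of experiment 2, and without that library the change of btg1.L was 3.07 ± 0.58 (adjusted p = 0.00155). In total RNA it rose by 1.76 ± 0.19 (adjusted p = 1.85e-04). Its copy btg1.S was the other gene called higher on the beads (1.48 ± 0.25, adjusted p = 2.45e-04). The 3 lower genes were btg4.L, btg4.S and cnot8.L. btg4.L, a maternal message of the same family, fell in total RNA to 182 and 203 at 9 hpf, against 689, 811, 728 and 760 at 5 hpf (-1.95 ± 0.16, adjusted p = 2.49e-05). On the beads btg4.L had 139, 201, 80 and 0 at 9 hpf and 683, 634, 889 and 1246 at 5 hpf (-4.42 ± 1.05, adjusted p = 0.0101). Without replicate 4 at 9 hpf, the library listed at 0, it was -2.62 ± 0.38 (adjusted p = 8.76e-05). On the beads and in total RNA btg1.L thus went up while btg4.L went down, and most genes of this list were called in neither direction on the beads. The rise of btg-x_gene34835 over these hours chose it and is not set beside them. The deadenylase subunit cnot8.L was called lower on the beads (-3.96 ± 1.13, adjusted p = 0.03) with values of 203, 199, 0 and 0 at 9 hpf, both zeros in experiment 2, and it was not called in total RNA (adjusted p = 0.339). On the beads it was not called without any 1 of the libraries of experiment 2 at 5 or 9 hpf (adjusted p = 0.0935 to 0.107), nor without any 1 replicate at both hours (0.0555 to 0.265).

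Of the glycosyltransferase list, 1 of 21 genes tested was higher on the beads and 1 lower. fut3.L, a fucosyltransferase, had 37, 53, 672 and 1681 on the beads at 9 hpf and 13, 2, 14 and 47 at 5 hpf (4.06 ± 1.06, adjusted p = 0.0169). It did not reach the value required for testing in enough bead libraries at 5 hpf, so this result is a description. fut3.L was not called without replicate 3 at 5 hpf (0.0804), replicate 4 at 9 hpf (0.0519), or replicate 2 (0.129) or 3 (0.0806) at both hours. Its replicates 3 and 4 were far above replicates 1 and 2, the same side as in abo.6.L. b4galt6.L was called lower (-4.23 ± 1.22, adjusted p = 0.0325) with 122, 205, 0 and 0 at 9 hpf, again with both zeros in experiment 2. It was not called without any 1 of the libraries of experiment 2 at 5 or 9 hpf (0.106 to 0.134), nor without replicate 1, 3 or 4 at both hours (0.0564 to 0.244). abo.5.L, which neighbours abo.6.L in the same RefSeq assembly, was at most 7 on the beads at 9 hpf. How reads were split between abo genes of similar sequence is not stated, so the level of abo.6.L is uncertain to that extent.

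The genes whose time course was most like each of the 7 were found by the Pearson correlation of log2(value + 1) over all 54 libraries, among 22354 genes. All points share time, fraction and experiment, so high values are common and no p is given. has2.L and btg-x_gene34835 were each other's most similar gene (r = 0.98). For gs17.L they were foxi4.2.S (0.98), bix1.2.L (0.98) and ventx2.2.S (0.98). For lpar6.L they were foxd4l1.1.L (0.99), LOC108697345 (0.98) and has-rs.S (0.98), a gene named as related to the hyaluronan synthases, with 503 and 542 in total RNA at 9 hpf. post3.S was nearest to LOC108702593 (0.98) and foxd4l1.1.L (0.98). gatm.L was nearest to LOC108696320 (0.97), gsc.L (0.94) and nodal.L (0.94), and abo.6.L to Xelaev18016063m (0.96) and iqgap2.L (0.96). Among the 7 genes themselves r ran between 0.68, for gatm.L and abo.6.L, and 0.98.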

How the data were processed

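The score values that the authors deposited are in 1 table, normalized with DESeq2 and rounded to whole numbers, per the submitters' processing notes, which also name Salmon 0.12.0. Which genome build and annotation were used is not given in the sources used here. Depth per library cannot be read from such values, so no counting interval was computed and no count test was run. 1 column that names no library was not used.

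Values were tested with limma-trend (limma 3.58.1, statmod 1.5.0, R 4.3.3, robust, two-sided) on log2(value + 1), which understates changes of low genes, with a term for experiment. Bead and flowthrough libraries were fitted separately for time and jointly for differences between them. A gene was tested if it reached 10 in as many libraries as the smallest group holds, with Benjamini-Hochberg adjustment over all of them. Calls needed an adjusted p under 0.05 and a change of at least 2-fold. The fits were tested on simulated data, where they recovered 58 of 200 changed genes for bead RNA at 8 against 6 hpf and 134 of 200 for total RNA. The simulated noise was normal and independent between libraries, without listed zeros or shared deviations of same-numbered libraries. Recovery in the real data may therefore differ. Tables and figures were made with Python 3.11.15, pandas 2.3.3, numpy 2.4.6 and matplotlib 3.10.9. Each p-value sets a change against the spread between libraries, which were taken as independent. Between bead and flowthrough RNA of the same hour, replicate 1 minus 2 correlated at 0.64 to 0.79 in experiment 1. Replicate 3 minus 4 did so at 0.15 to 0.25 in experiment 2. This pairing was not modelled when bead was set against flowthrough RNA.

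The 7 genes and all gene lists were chosen with earlier results of these data known. Named list genes were, per list, up to 4 called genes with the largest change and up to 2 not called with the highest mean, for bead RNA at 9 against 5 hpf, and 3 most similar genes per member. lpar2.L, lpar1.S, lpar5.S, plpp3.L, btg4.S, has3.L and abo.5.L were added after their values were seen. Alternatives were 10 added before the logarithm, no filter, quantile normalization, no experiment term, each experiment alone, a replicate block and leaving out libraries. Averaging replicates 1 and 3, and 2 and 4, was added after seeing the data.

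The series' design text gives 2 clutches per experiment as the replicates. Same-numbered libraries deviated together: the correlation over 14404 genes of replicate 1 minus 2 between hours was 0.64 to 0.83 in experiment 1, and that of replicate 3 minus 4 on the beads of experiment 2 was 0.08 to 0.17. Replicate 1 minus 2 also correlated with replicate 3 minus 4 across experiments, at 0.65 to 0.83 in the flowthrough and 0.15 to 0.28 on the beads, so the 4 libraries of a group may not stand for 4 independent clutches.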

Additional observations from a re-analysis of the deposited data

Results flagged for a closer look

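The change from 6 to 8 hpf was called different between bead and flowthrough RNA for 4 genes, given as a description. Their flowthrough values were at most 4 at 6 and 8 hpf, so the difference largely repeats their rise on the beads. The fitted difference on the log2(value + 1) scale was 7.38 for has2.L, 7.42 for lpar6.L, 7.35 for post3.S and 7.57 for btg-x_gene34835. The groups at 6 hpf were at or near 0 in both fractions, so these fitted values depend on the 1 added before the logarithm and are not folds.

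Of 33 groups of 4 libraries of the 7 genes, 2 held a library far from the other 3, and chance gives such a gap in about 1 in 20 groups. gs17.L in the flowthrough at 9 hpf had 37 in replicate 2 and 60, 59 and 63 in the others. gatm.L on the beads at 7 hpf had 37 in replicate 3 and 6, 0 and 0 in the others.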

How the results depend on the processing

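Counts of called genes among the 7 changed as follows. For bead RNA at 7 against 6 hpf the count of 5 was 0 in experiment 2 alone and 0 with replicates 1 and 3, and 2 and 4, averaged, and 0 to 5 when libraries were left out. For bead RNA at 8 against 7 hpf the count of 0 was 2 with 10 added before the logarithm and 1 under quantile normalization. For bead RNA at 8 against 6 hpf the count of 5 was 0 in experiment 2 alone and 5 to 6 when libraries were left out. For the flowthrough at 8 against 6 hpf the count of 1 was 0 in either experiment alone and 0 with replicates averaged. For total RNA at 8 against 6 hpf the count of 7 was 0 to 7 when libraries were left out. The counts of the other 4 comparisons that test the 7 genes stayed within 1.5 times. Of the genes' own values only gatm.L for bead RNA at 8 against 7 hpf reversed, to -0.33 in experiment 2 alone (adjusted p = 1.0, and 0.108 to 1.0 over its alternatives). Of the listed genes at 9 against 5 hpf, the 13 called on the beads became 20 under quantile normalization, 8 without the experiment term, 23 in experiment 1 alone, 1 in experiment 2 alone and 8 to 16 when libraries were left out. The 9 in the flowthrough became 3 in experiment 1 alone and 5 with replicates averaged. The 17 in total RNA were 0 to 16 when libraries were left out. The 38 between bead and flowthrough RNA became 18 without the experiment term, 19 in experiment 1 alone and 19 to 42 when libraries were left out. The replicate block left the count of the 7 genes as it was in each of the 9 comparisons that test them, such as 5 for bead RNA at 7 against 6 hpf. The cause of these changes was not tested.

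Over all genes, those called higher numbered 126 (1 to 313 over the alternatives) for bead RNA at 7 against 6 hpf, 23 (0 to 51) at 8 against 7 hpf, 516 (11 to 780) at 8 against 6 hpf and 1208 (245 to 1771) at 9 against 5 hpf. They numbered 22 (0 to 32) for the flowthrough at 8 against 6 hpf, 39 (12 to 127) at 9 against 5 hpf, 797 (0 to 1207) for total RNA at 8 against 6 hpf and 1346 (0 to 2098) at 9 against 5 hpf. Bead over flowthrough gave 730 (380 to 1028), 1419 (859 to 1718) and 2014 (1448 to 2793) at 7, 8 and 9 hpf, the difference of changes 404 (57 to 515), and total over flowthrough 1684 (1085 to 2347). Of the genes called in either direction, and not of all genes tested, a share was higher, and quantile normalization moved that share. For bead over flowthrough it went from 52.6 to 75.6%, 44.3 to 64.8% and 33.1 to 51.0% at 7, 8 and 9 hpf. For total over flowthrough it went from 97.7 to 80.0%. At 9 against 5 hpf it went from 80.3 to 69.4% for bead and 75.7 to 61.3% for total RNA. For the flowthrough at 8 against 6 hpf it went from 34.9 to 46.5%. Quantile normalization moved the median log2 change of all genes most for bead over flowthrough at 9 hpf, to -0.28 from -0.69. Leaving out a replicate of the total against flowthrough comparison was not run, since no residual degrees of freedom remained.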
